A study of Mus musculus with 16 samples.

Results

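YFP- macrophages of pancreatic tumors were compared with YFP- macrophages of normal mouse pancreas. The comparison uses 8 of the 16 arrays of the series, 5 from tumors and 3 from normal tissue, chosen by the tissue and the reporter state in the sample labels. The cells had been sorted by flow cytometry into lysis buffer, and their RNA was amplified, labelled with Cy5 and read on one-color Agilent arrays. All 8 samples are labelled as coming from female C57/B6 mice aged 8 to 10 weeks. The series design lists wild-type, KPC and FLT3-CRE/LSL-YFP animals, the treatment text mentions implantation of tumors, and the genotype field is unfilled. The tumor model of the 5 tumor samples, and whether tumor and control animals carried the same alleles, therefore cannot be read from the labels. The title numbers were taken as mice, which gives tumor mice 23547, 23548, 23550, 23551 and 23677 and normal mice 23912, 23916 and 23917. The labels do not say outright that each sample is a separate animal. The p-values measure the spread between samples within groups, pooled over all 16 arrays and not over these 8 alone. The other arrays are those of YFP+ macrophages, which carry the same mouse numbers.

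In a Flt3-Cre reporter, cells that descend from blood progenitors with Flt3 expression switch YFP on for good. YFP- macrophages lack that mark, either because they have another ancestry or because Cre did not act in their ancestors. Macrophages that live in a tissue for long periods carry scavenger receptors and lectins for clearing debris, whereas monocyte-derived macrophages arrive from blood and change their genes with the site. In tumors, macrophages often meet little oxygen and much cell death, and can make arginase, growth factors for vessels and enzymes that rebuild matrix.

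Values are log2 signals minus the 75th percentile of the array, so 0 stands for that percentile, and a difference is tumor minus normal, with its standard error (SE). Per array, values are given in the order of mice listed above. The 75th percentile lay between 2167 and 3190 intensity units, 64.8 to 75.4% of the spots were well above background, and 0 were saturated. The sample of normal mouse 23912 stood apart from the other normal samples. Its mean over the 40 genes of tissue-resident macrophages was 1.07, against 2.75 and 2.64 in mice 23916 and 23917, and its mean over 41 proliferation genes was -0.10, against -1.27 and -1.20. Its mean over 42 matrix genes was -2.39, against -1.05 and -0.09. Results that turn on this sample are given with and without it.

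Of 24278 genes tested, 3908 (16.1%) passed the test (limma, Benjamini-Hochberg adjusted p under 0.05), 1853 (7.63%) higher and 2055 (8.46%) lower in tumor YFP- macrophages. The share called in each gene list below is to be read against these shares. Measured differences of at least 4-fold were found for 620 higher and 499 lower genes. These counts include genes at background in a whole group, whose true difference has only a lower bound that can be smaller. The values of all 5 tumor arrays lay beyond those of all 3 normal arrays for 4803 genes (19.8%), 3400 of them called. The number of calls was 2429 without normal mouse 23916, 2303 in a fit of the 8 YFP- arrays alone and 9344 with array weights. The median difference over all genes was -0.19, and with the array median in place of the 75th percentile it was 0.01, so small differences have to be read against this shift. With the 75th percentile 47.4% of the called genes were higher, against 64.3% with the array median and 58.2% with another background correction (normexp). Each array slide held 4 arrays, and 3 slides held 1 tumor and 1 normal YFP- sample each, while the YFP- samples of another were those of tumor mice 23550 and 23551. On all 3 slides the difference had the same sign as in the fit for 132 of the 133 called genes named here, H2-Oa being the exception. Genes without overlap between the groups must keep their sign on every slide. Many of the genes named were also picked by their calls, so this count is no test of slide effects. With the slide as a block 3698 genes were called. Within slides the median lay between 2.33 and 2.92 for the tumor-associated macrophage list, 1.46 and 1.67 for glycolysis and hypoxia, -6.67 and -5.07 for acinar cells, -2.05 and -0.15 for tissue-resident macrophages, -0.05 and 1.41 for proliferation and -0.24 and 2.40 for collagens and matrix. Of the 39 list medians 26 had the sign of the fit on all 3 slides. Those that did not include islet cells (-1.43 to 0.06), complement (-0.66 to 0.73) and dendritic cells (-0.06 to 0.71).

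**Figure D1:**
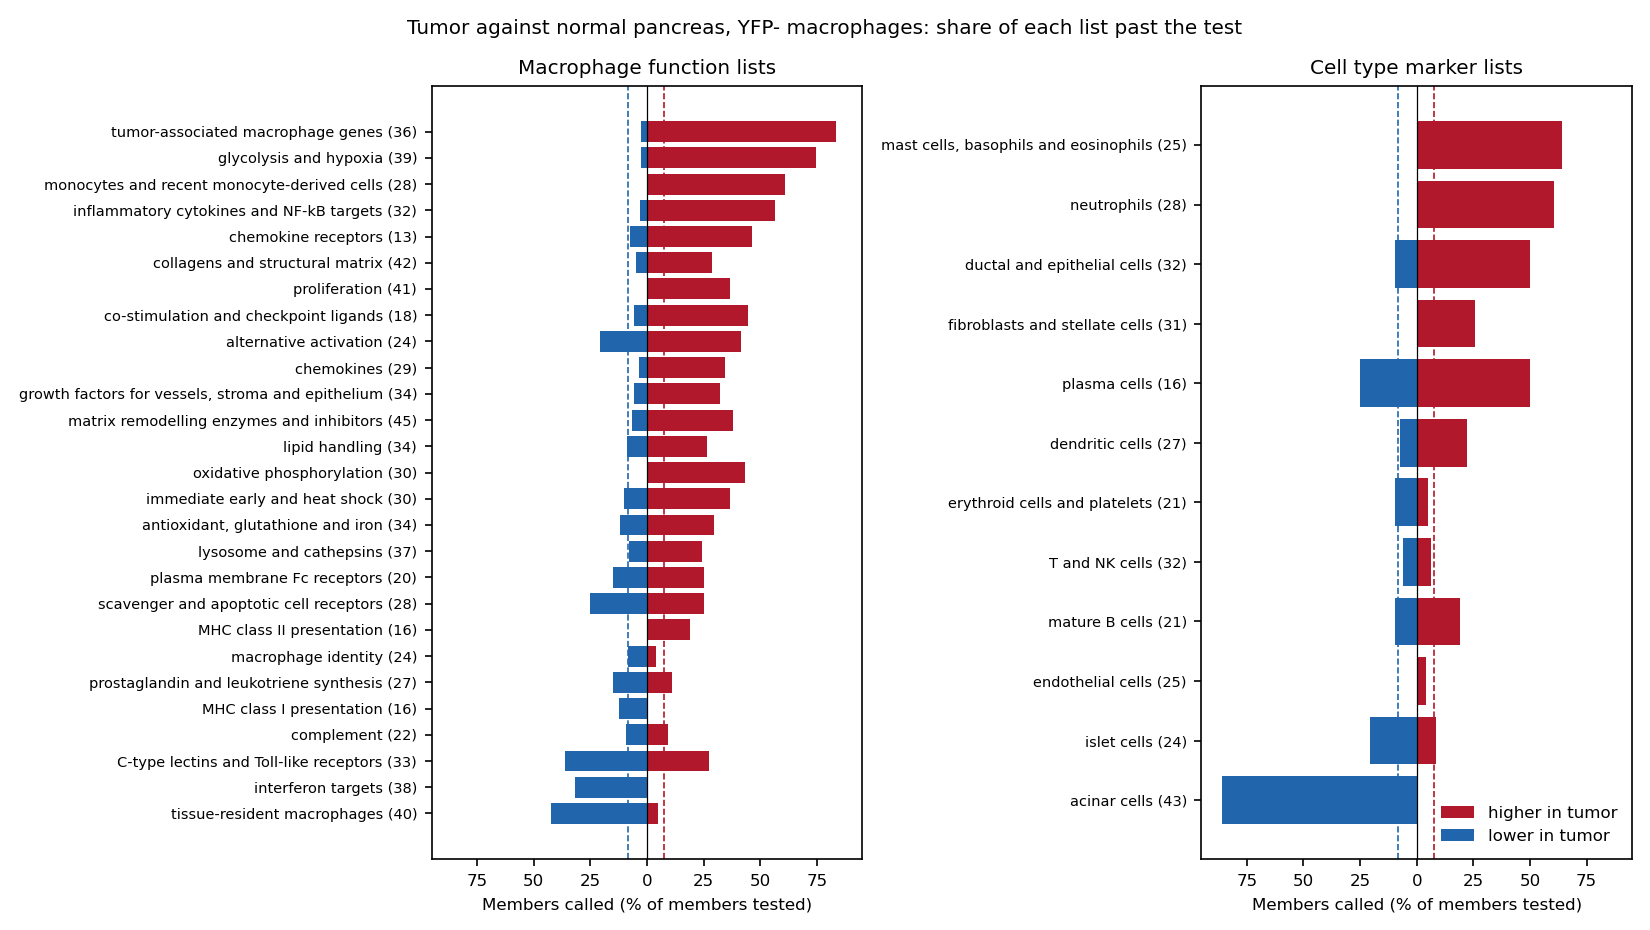
Share of the tested members of each gene list that were called higher (red, to the right) or lower (blue, to the left) in tumor YFP- macrophages, with the number tested in brackets and lists ordered by median difference. Dashed lines mark the shares over all genes, 7.63% higher and 8.46% lower; tumor-associated macrophage genes (30 of 36 higher), glycolysis and hypoxia genes (29 of 39 higher) and acinar genes (37 of 43 lower) lie farthest from them.

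The sorted cells of both tissues carried the markers of macrophages: all 24 macrophage identity genes were well above background on all 8 arrays. Of these genes 1 rose and 2 fell, 12.5% against 16.1% of all genes, with a median difference of -0.08. Csf1r, the receptor gene for the growth factor that keeps macrophages alive, read 5.55, 5.48, 4.93, 5.69 and 5.61 in tumor and 5.61, 6.47 and 6.56 in normal samples (difference -0.76 ± 0.25, adjusted p = 0.0513). Every value lay far above the 75th percentile, the groups overlapped slightly, and the difference passed without normal mouse 23912 (-1.07, adjusted p = 0.00839) or tumor mouse 23677 (-0.80, adjusted p = 0.0494). Cd68, a lysosomal membrane protein gene, differed by -0.23 ± 0.21 (adjusted p = 0.489), and Mertk, a receptor for dying cells, by 0.41 ± 0.35 (adjusted p = 0.441; -0.04, adjusted p = 0.958 without normal mouse 23912). Adgre1, which encodes the F4/80 antigen, fell by 1.05 ± 0.26 (adjusted p = 0.0134; 0.0741 without normal mouse 23916 and 0.0793 without normal mouse 23917). Maf, a transcription factor gene of mature macrophages, was lower at 0.73, 0.33, 0.45, 1.06 and 0.74 in tumor against 1.97, 3.05 and 3.31 in normal samples (-2.11 ± 0.27, adjusted p = 1.14e-04), with no overlap. Cd14, the co-receptor for lipopolysaccharide, rose by 1.09 ± 0.27 (adjusted p = 0.0131; 0.0673 without normal mouse 23912). Leaving out normal mouse 23916 or 23917 left 1 lower member of this list, leaving out 23912 gave none higher and 3 lower, and leaving out tumor mouse 23677 gave 2 higher and 3 lower. Flt3 itself differed by 0.47 ± 0.50 (adjusted p = 0.542).

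Of 40 genes of tissue-resident macrophages 17 fell and 2 rose in tumor YFP- cells (47.5% called), while 21 did not pass the test, with a median difference of -1.09. In these sorted populations, fewer cells of a kind and less RNA per cell cannot be told apart. Cd209f, a lectin gene of the DC-SIGN family, read 1.35, -0.66, -0.30, 0.58 and 0.44 in tumor and 3.38, 4.96 and 4.88 in normal samples (-4.12 ± 0.52, adjusted p = 8.74e-05). Folr2, a folate receptor gene of resident macrophages, read 1.83, 0.29, 0.09, 1.98 and 1.35 against 2.30, 4.33 and 4.14 (-2.48 ± 0.54, adjusted p = 0.00585). In both genes every tumor sample lay below every normal sample, and the sample of normal mouse 23912 lay nearest to the tumor samples. Gpr34, a receptor for a lysophospholipid, fell by 3.34 ± 0.39 (adjusted p = 4.50e-05) and Wwp1, a ubiquitin ligase gene, by 2.43 ± 0.34 (adjusted p = 1.98e-04). Cd209b was not well above background on any tumor array and was at least 4.03-fold lower there (adjusted p = 5.97e-05). Here and below, a gene at background in a whole group is given by the smaller of its bound against background and its fold with normexp. With normexp the log2 difference was -2.01 for Cd209b.

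Several defining genes of resident macrophages depended on single samples. Timd4, a receptor for phosphatidylserine on dying cells, fell by 2.54 ± 0.68 (adjusted p = 0.0193; 0.103 without normal mouse 23916 and 0.0898 without normal mouse 23917). Cd163, the receptor for hemoglobin bound to haptoglobin, fell by 2.35 ± 0.68 (adjusted p = 0.0298; 0.131 without normal mouse 23916, 0.112 without normal mouse 23917, 0.0634 without tumor mouse 23548 and 0.0644 without tumor mouse 23550). Mrc1, the mannose receptor gene, fell by 1.09 ± 0.34 (adjusted p = 0.0435; 0.166 without normal mouse 23916, 0.176 without normal mouse 23917, 0.0894 without tumor mouse 23548, 0.0929 without tumor mouse 23550 and 0.0635 without tumor mouse 23677). Lyve1, a hyaluronan receptor gene, read 0.43, -3.29, -1.77, 0.36 and 0.04 in tumor against -0.01, 3.21 and 2.79 in normal samples, so that the groups overlapped (-2.84 ± 0.94, adjusted p = 0.0539). Siglec1, the sialoadhesin gene, differed by -1.20 ± 0.62 (adjusted p = 0.208) and Pf4, a chemokine gene of platelets and some macrophages, by -0.87 ± 0.40 (adjusted p = 0.160). These 3 genes passed without normal mouse 23912, Lyve1 at -3.85, adjusted p = 0.0156, Siglec1 at -2.07, adjusted p = 0.0226 and Pf4 at -1.44, adjusted p = 0.0153. Lyve1 also passed without tumor mouse 23547, 23551 or 23677 (adjusted p = 0.0447, 0.0495 and 0.0468). The members that rose were Clec4n, the lectin gene for Dectin-2 (2.64 ± 0.42, adjusted p = 6.31e-04), and Marco, a scavenger receptor gene (2.47 ± 0.64, adjusted p = 0.0163; 0.0630 without normal mouse 23912 and 0.0545 without normal mouse 23917). Without normal mouse 23912 there were 22 lower and 1 higher members and the median was -1.56; without 23917 or 23916 there were 11 lower members each.

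Of 28 genes of monocytes and of cells recently derived from them 17 rose and none fell in tumor YFP- macrophages (60.7% called), with a median difference of 1.38. Thbs1, the gene of the matrix protein thrombospondin 1, read 2.59, 1.83, 2.02, 3.10 and 2.57 in tumor and -3.64, -3.26 and -1.63 in normal samples (5.27 ± 0.46, adjusted p = 3.21e-06). Clec4e, the gene of the lectin Mincle, read 1.03, 0.84, 1.24, 1.51 and 0.60 against -3.97, -3.24 and -4.84 (5.06 ± 0.43, adjusted p = 2.62e-06). Neither gene had overlapping groups. Ccr2, the chemokine receptor that brings monocytes out of the bone marrow, read 0.59, 0.30, 0.39, 0.28 and -0.44 in tumor against 1.66, 0.06 and 1.08 in normal samples (-0.71 ± 0.33, adjusted p = 0.157; -1.15, adjusted p = 0.0284 without normal mouse 23916). The monocyte gene Ly6c2 was not tested. Itgax, the CD11c gene of dendritic cells and some macrophages, rose from a range of -1.64 to 0.48 to a range of 1.94 to 2.60 (3.05 ± 0.35, adjusted p = 4.19e-05). Without normal mouse 23916 15 members rose and 1 fell. Neutrophil markers rose in the same samples, from a summed signal of 220 to 276 times the 75th percentile in normal to 272 to 330 times in tumor samples, and their part in this result was not tested. Their mean log2 signal rose from a range of -1.60 to -1.25 to a range of 0.99 to 1.27. Bright members weigh most in the sum, and the list holds Itgam, which is also a macrophage identity gene. Clec4e was well above background on 2 of 3 normal arrays.

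The genes listed for tumor-associated macrophages showed the largest median difference of the macrophage function lists. Of 36 members 30 rose and 1 fell (86.1% called), with a median difference of 2.97. The list was compiled with earlier results of these data in view, so its direction is no independent evidence. Arg1, which encodes the arginine-degrading enzyme arginase 1, read 3.70, 2.57, 2.12, 3.88 and 3.61 in tumor and -4.09, -3.55 and -4.12 in normal samples (7.09 ± 0.42, 137-fold, adjusted p = 8.49e-08). Its probe lies at chr10:24636194-24636253 (build mm9). Plet1, a gene of a membrane-anchored surface protein, read 4.33, 4.17, 4.64, 4.4 and 4.10 against -1.83, -2.05 and -2.46 (6.44 ± 0.20, adjusted p = 1.24e-10; probe at chr9:50313107-50313166). Adamdec1, a metalloprotease-like gene, read 2.69, 2.56, 2.37, 2.99 and 2.41 against -3.17, -3.58 and -3.55 (6.04 ± 0.18, adjusted p = 1.03e-10; probe at chr14:69186779-69186838). In all 3 genes the gap between the groups was larger than the range within either group.

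Among the other members of that list, Spp1, the gene of the secreted protein osteopontin, read 3.97, 3.29, 3.35, 3.90 and 3.74 in tumor and -2.56, -2.51 and -0.74 in normal samples (5.59 ± 0.72, adjusted p = 1.14e-04). Nt5e, the CD73 enzyme that makes adenosine outside cells, was not well above background on any normal array and was at least 10.7-fold higher in tumor (adjusted p = 1.65e-08). Gpnmb, a glycoprotein gene of lipid-laden macrophages, rose by 2.03 ± 0.24 (adjusted p = 5.59e-05). Trem2, a lipid receptor gene, differed by 0.59 ± 0.31 (adjusted p = 0.215), with values of 3.97, 3.44, 3.0, 3.62 and 3.45 against 2.12, 3.43 and 3.17. The single member that fell was Lpl, the lipoprotein lipase gene (-1.62 ± 0.23, adjusted p = 2.14e-04). The log2 difference was 3.42 for Nt5e with normexp.

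**Figure D2:**
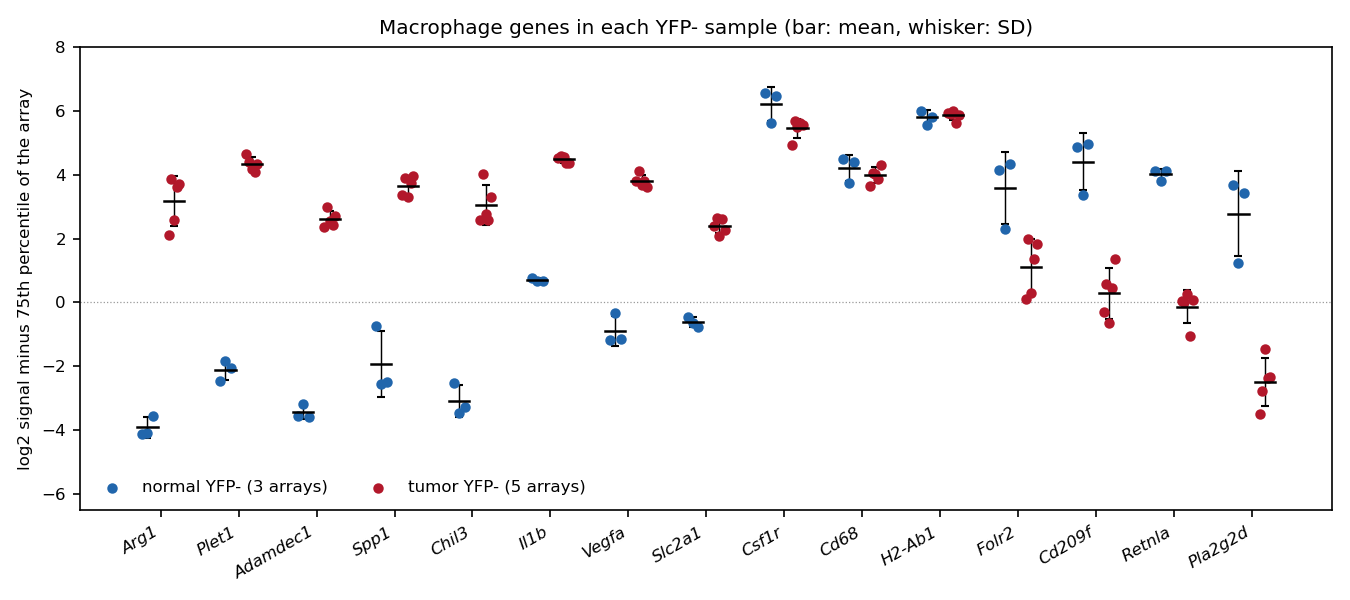
Log2 signal of 15 genes in each YFP- sample (points), with group means (bars) and SD (whiskers), tumor in red (5 arrays) and normal pancreas in blue (3 arrays). Arg1, Plet1, Adamdec1, Spp1, Chil3, Il1b, Vegfa and Slc2a1 lie higher in every tumor sample, Folr2, Cd209f, Retnla and Pla2g2d lower in every tumor sample, and the groups overlap for Csf1r, Cd68 and H2-Ab1.

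Promoters were searched for short motifs of well-known transcription factors, as a description of the letters only. The windows run from 250 bases before to 50 bases after the gene start, from RefSeq's table on build GRCm38.p6, and both strands were searched. The AP-1 motif TGANTCA was held by 6 of 26 promoters of the tumor-associated macrophage list (23.1%), against 7.93% of all 27025 promoters, 8.42% of genes called higher and 5.70% of genes called lower. The C/EBP motif TTGCNNAA was held by 8 of the same promoters (30.8%), against 10.8% of all, but the hypoxia element and the E-box were each held by 8 of them too, and the PU.1 motif by 6 (23.1%). The PU.1 motif GAGGAAG was held by 11 of 29 promoters of the resident list (37.9%), against 13.5% of all, 16.6% of genes called higher and 15.3% of genes called lower. The hypoxia element ACGTG was held by 21 of 36 promoters of the glycolysis and hypoxia list (58.3%), against 19.7% of all. The E-box CACCTG was held by 21 of 35 acinar promoters (60.0%), against 20% of all. The pairs of motif and list printed were chosen after their shares were seen; over the other pairs of these lists, with the inflammatory list, and the 5 motifs the shares lay between 2.78% and 28.0%. None of the motifs is contained in another.

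The 250 bases before the start are shown for Fcer1a and Plet1 (higher) and Cd36 and Pla2g2d (lower). They were picked by their measured difference among called function-list genes without overlap and with a promoter in the table; Fcer1a was at background on all normal arrays and Cd36 on some tumor arrays, so that their rank rests on background values. Added after the values were seen are Ankrd37, the largest rise of the hypoxia list with the hypoxia element in these bases, and Cela2a, the largest fall of the acinar list with the E-box in them. Capitals mark matches to any of the 5 motifs, 5′ to 3′ on the strand of the gene.
Fcer1a (chr1:173227230-173227479, minus strand): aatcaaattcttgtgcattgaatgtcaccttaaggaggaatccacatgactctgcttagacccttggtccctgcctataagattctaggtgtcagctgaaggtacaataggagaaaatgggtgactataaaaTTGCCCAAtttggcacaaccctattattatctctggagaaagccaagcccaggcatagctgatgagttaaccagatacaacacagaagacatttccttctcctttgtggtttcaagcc
Plet1 (chr9:50494275-50494524, plus strand): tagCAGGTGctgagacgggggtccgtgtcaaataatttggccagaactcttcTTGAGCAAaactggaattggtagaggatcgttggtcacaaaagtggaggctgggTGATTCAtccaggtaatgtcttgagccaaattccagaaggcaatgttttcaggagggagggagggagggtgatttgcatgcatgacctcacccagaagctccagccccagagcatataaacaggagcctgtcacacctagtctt
Cd36 (chr5:17835897-17836146, minus strand): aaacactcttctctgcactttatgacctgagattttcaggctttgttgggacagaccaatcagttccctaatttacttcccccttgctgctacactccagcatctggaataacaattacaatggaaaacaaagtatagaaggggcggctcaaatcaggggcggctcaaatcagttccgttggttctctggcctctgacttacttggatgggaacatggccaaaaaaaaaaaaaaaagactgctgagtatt
Pla2g2d (chr4:138775485-138775734, plus strand): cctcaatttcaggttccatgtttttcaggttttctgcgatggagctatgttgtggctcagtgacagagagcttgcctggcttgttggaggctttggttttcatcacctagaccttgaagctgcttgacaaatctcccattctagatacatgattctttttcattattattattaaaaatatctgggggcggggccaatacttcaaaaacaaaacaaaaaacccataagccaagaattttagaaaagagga
Ankrd37 (chr8:45999851-46000100, minus strand): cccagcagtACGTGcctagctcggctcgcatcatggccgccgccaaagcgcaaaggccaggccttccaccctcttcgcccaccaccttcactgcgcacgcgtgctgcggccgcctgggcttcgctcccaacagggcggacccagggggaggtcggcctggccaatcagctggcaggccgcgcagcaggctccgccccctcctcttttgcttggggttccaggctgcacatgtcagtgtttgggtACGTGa
Cela2a (chr4:141826006-141826255, minus strand): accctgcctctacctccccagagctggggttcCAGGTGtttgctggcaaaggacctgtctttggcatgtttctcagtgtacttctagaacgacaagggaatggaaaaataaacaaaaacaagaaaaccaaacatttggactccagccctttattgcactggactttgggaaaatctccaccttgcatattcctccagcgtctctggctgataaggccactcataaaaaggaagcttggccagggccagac
Plet1 holds an E-box, a C/EBP and an AP-1 match, Fcer1a a C/EBP match and Ankrd37 the hypoxia element at 2 places, while these letters do not occur in the bases shown of Cd36 and Pla2g2d.

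Genes of alternative activation, the program of macrophages exposed to interleukin 4, moved in both directions. Of 24 members 10 rose and 5 fell (62.5% called), with a median difference of 0.84. Chil3, the chitinase-like Ym1 gene, read 3.31, 2.76, 2.57, 4.01 and 2.58 in tumor and -3.47, -3.29 and -2.53 in normal samples (6.14 ± 0.48, adjusted p = 1.10e-06), while Retnla, the secreted RELMα gene of the same program, read 0.08, 0.25, 0.05, 0.01 and -1.06 against 3.81, 4.13 and 4.11 (-4.15 ± 0.40, adjusted p = 7.98e-06). Both changes separated the groups completely and ran in opposite directions. Tgm2, a protein cross-linking enzyme gene, rose by 2.58 ± 0.20 (adjusted p = 1.13e-06), and Ccl17, a chemokine gene for T cells, by 3.11 ± 0.27 (adjusted p = 3.47e-06). Fcrls, an Fc receptor-like gene, fell by 2.02 ± 0.30 (adjusted p = 3.13e-04). The count of lower members was 3 without tumor mouse 23548 or 23550 and 2 without normal mouse 23916 or 23917.

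Of 32 inflammatory cytokine and NF-kB target genes 18 rose and 1 fell (59.4% called), and 13 did not pass the test, with a median difference of 1.14. Il1b, the gene of the cytokine interleukin 1 beta, read 4.38, 4.54, 4.53, 4.57 and 4.36 in tumor and 0.66, 0.66 and 0.77 in normal samples (3.78 ± 0.16, 13.7-fold, adjusted p = 6.23e-09). The spread within both groups was small beside the difference. Il1a rose by 4.64 ± 0.32 (adjusted p = 3.44e-07), and the antagonist gene Il1rn rose from a range of 1.67 to 2.40 to a range of 4.47 to 4.90 (2.71 ± 0.23, adjusted p = 1.93e-06). Il1r2, the decoy receptor for interleukin 1, read 4.37, 4.65, 4.80, 4.85 and 4.59 against -1.35, -4.72 and -3.67 (7.90 ± 0.53, adjusted p = 2.35e-07). Il1r2 is also a member of the neutrophil list. Tnfaip2, a gene induced by tumor necrosis factor, rose by 3.12 ± 0.23 (adjusted p = 6.04e-07). The lower member was not called without tumor mouse 23547, 23550, 23551 or 23677 or normal mouse 23916. Tnf itself differed by 0.30 ± 0.22 (adjusted p = 0.365) and Nos2, the inducible nitric oxide synthase gene, by -0.05 ± 0.35 (adjusted p = 0.940). Il1a was well above background on 1 of 3 normal arrays. Under normexp the log2 difference was 3.09 for Il1a.

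Among prostaglandin and leukotriene genes 3 rose and 4 fell of 27 (25.9% called, against 16.1% of all genes). Ptgs2, the inducible cyclooxygenase gene, read 0.55, 0.96, 1.22, 0.56 and 0.49 in tumor against -3.85, -4.83 and -5.84 in normal samples (5.6 ± 0.84, adjusted p = 3.91e-04). Pla2g2d, a secreted phospholipase gene of resident macrophages and dendritic cells, went the other way, at -2.33, -1.46, -3.51, -2.77 and -2.38 against 1.24, 3.43 and 3.67 (-5.28 ± 0.57, adjusted p = 2.28e-05). Hpgd, the enzyme that inactivates prostaglandins, read -1.04, -0.82, -4.46, -1.22 and -1.12 against 1.98, 3.23 and 3.25 (-4.56 ± 0.68, adjusted p = 3.77e-04). Every tumor sample lay above every normal sample for Ptgs2 and below every normal sample for Hpgd. Alox15, a lipoxygenase gene of eosinophils and some macrophages, rose by 3.27 ± 0.58 (adjusted p = 0.00144), and Cbr2, a carbonyl reductase gene, fell by 2.32 ± 0.49 (adjusted p = 0.00510). Ptgs2 was well above background on 1 of 3 normal arrays and Hpgd on 4 of 5 tumor arrays. Normexp gave 3.70 for Ptgs2 on the log2 scale.

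Of 29 chemokine genes 10 rose and 1 fell (37.9% called), and of 13 chemokine receptor genes 6 rose and 1 fell (53.8%). The neutrophil attractants Cxcl2 and Cxcl3 rose by 2.61 ± 0.38 (adjusted p = 2.73e-04) and 3.93 ± 0.38 (adjusted p = 9.02e-06), and Cxcr2, their receptor gene, by 2.16 ± 0.33 (adjusted p = 4.15e-04). Cxcr2 is also a member of the neutrophil list. Ppbp, a platelet chemokine gene, was at least 8.94-fold higher, since it was not well above background on normal arrays (adjusted p = 1.05e-06). Ccrl2, a receptor that holds the attractant chemerin at the surface, rose by 3.41 ± 0.30 (adjusted p = 2.85e-06). The macrophage chemokine Ccl2, an attractant of monocytes, differed by -0.01 ± 0.24 (adjusted p = 0.988), Ccl8 by 0.71 ± 0.70 (adjusted p = 0.512; -0.32 without normal mouse 23912 and 1.39 without 23916), Cxcl9 by -1.24 ± 0.57 (adjusted p = 0.160; -0.75 without tumor mouse 23551) and Cxcl13, an attractant of B cells, by 2.69 ± 1.39 (adjusted p = 0.206; 1.17 without normal mouse 23912). The member that fell, the eosinophil attractant Ccl11, was not well above background on any tumor array, at least 1.62-fold lower (adjusted p = 0.00266), and its call ended with normexp (adjusted p = 0.167). Without normal mouse 23912 there were 3 and without tumor mouse 23547 2 lower chemokine genes, and the lower chemokine receptor gene was not called without tumor mouse 23547, 23548, 23551 or 23677 or normal mouse 23917. Cxcl3 was well above background on 1 of 3 normal arrays and Cxcl13 on 2 of 3 normal arrays. With normexp the log2 differences were 2.34 for Cxcl3, 3.16 for Ppbp and -0.70 for Ccl11.

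Genes for presenting antigen on MHC class II were high in both tissues. H2-Ab1, a class II chain gene, read 5.87, 6.0, 5.94, 5.91 and 5.6 in tumor and 5.57, 5.82 and 6.01 in normal samples (0.07 ± 0.18, adjusted p = 0.821). Cd74, the class II chaperone, differed by -0.01 ± 0.17 (adjusted p = 0.962) and Ciita, the activator of class II genes, by -0.24 ± 0.20 (adjusted p = 0.439), or by -1.72 as the mean of its probes (adjusted p = 0.00781). Of the 16 members 3 rose (18.8% called, near the 16.1% of all genes), with a median difference of 0.02. They were Ifi30, a thiol reductase gene of the lysosome (1.09 ± 0.13, adjusted p = 6.45e-05), H2-DMb2 (1.26 ± 0.28, adjusted p = 0.00659) and H2-Oa (1.87 ± 0.50, adjusted p = 0.0207), chains that act in peptide loading, and without normal mouse 23916 1 of these calls was left. Without 23917 H2-Oa was not called either (adjusted p = 0.0888), and without tumor mouse 23548 or 23550 1 class II gene fell. Of 16 genes for class I presentation 2 fell (12.5% called, against 16.1% of all genes). Leaving out a single sample gave 0 or 1 lower members except without tumor mouse 23677 and normal mouse 23912.

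Of 18 co-stimulation and checkpoint genes 8 rose and 1 fell (50% called). Cd274, the PD-L1 gene, rose from -3.04, -3.97 and -3.69 in normal to -2.0, -1.98, -1.60, -1.48 and -2.26 in tumor samples (1.70 ± 0.26, adjusted p = 3.86e-04), all below the 75th percentile. Havcr2, the TIM-3 gene, rose by 2.18 ± 0.28 (adjusted p = 9.34e-05), and the genes Pvr and Nectin2, ligands of the checkpoint receptor TIGIT, by 3.28 ± 0.47 (adjusted p = 2.55e-04) and 1.87 ± 0.21 (adjusted p = 2.92e-05). Of 38 interferon targets 12 fell and none rose (31.6% called), and 26 did not pass the test, with a median difference of -0.68. Oas2, an antiviral enzyme gene, read -0.35, -2.01, -0.98, -1.92 and -1.39 in tumor and 1.36, 2.14 and 2.29 in normal samples (-3.26 ± 0.35, adjusted p = 2.53e-05). Ifit3 fell by 1.62 ± 0.36 (adjusted p = 0.00723) and Rtp4 by 1.59 ± 0.36 (adjusted p = 0.00734). The interferon count was 5 without normal mouse 23916, where 1 member rose, 5 without 23917 and 4 with the array median as the scale, where 1 rose, and 4 in the fit of the YFP- arrays alone. Without normal mouse 23912 there were 2 lower co-stimulation genes, and none without tumor mouse 23547, 23548, 23551 or 23677 or normal mouse 23917. Pvr was well above background on 1 of 3 normal arrays. The log2 differences were 1.13 for Cd274 and 1.77 for Pvr with normexp.

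Of 20 Fc receptor genes 5 rose and 3 fell (40.0% called), with 1 lower without normal mouse 23917, and of 22 complement genes 2 rose and 2 fell (18.2%, near the 16.1% of all genes; none in the YFP- arrays alone), with 0 to 1 higher when any single sample was left out and 0 to 4 lower. Of 28 scavenger and apoptotic cell receptors 7 rose and 7 fell (50% called), and of 33 C-type lectins and Toll-like receptors 9 rose and 12 fell (63.6%). Cd36, a receptor for oxidized lipids, read -3.89, -6.55, -6.89, -4.01 and -3.73 in tumor against -0.64, 1.16 and 1.12 in normal samples (-5.56 ± 0.92, adjusted p = 7.95e-04). Gas6, the bridging ligand that coats dying cells, fell by 1.36 ± 0.29 (adjusted p = 0.00580). Its receptor Axl rose by 1.0 ± 0.19 (adjusted p = 0.00274), and Mfge8, another bridging protein, by 1.61 ± 0.15 (adjusted p = 6.18e-06). Olr1, a second receptor for oxidized lipids, was not well above background on normal arrays and at least 7.81-fold higher in tumor (adjusted p = 1.78e-05). Among the lectins, Clec7a, the fungal sugar receptor Dectin-1, rose by 1.65 ± 0.22 (adjusted p = 1.70e-04), Clec4d by 3.07 ± 0.43 (adjusted p = 2.30e-04), and Cd209g fell by 4.66 ± 0.65 (adjusted p = 2.09e-04). Without normal mouse 23916 or 23917 there were 3 lower scavenger and 7 lower lectin genes, and without tumor mouse 23548 or 23550 4 lower scavenger genes. Cd36 was well above background on 3 of 5 tumor arrays and Cd209g on 2 of 5 tumor arrays. Under normexp the log2 differences were -3.31 for Cd36, 3.29 for Olr1 and -2.62 for Cd209g.

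Genes of glycolysis and of the response to low oxygen rose together. Of 39 members 29 rose and 1 fell (76.9% called), with a median difference of 1.65. Slc2a1, the glucose transporter gene, read 2.26, 2.08, 2.39, 2.63 and 2.62 in tumor and -0.63, -0.76 and -0.44 in normal samples (3.01 ± 0.20, adjusted p = 1.93e-07). Slc16a3, which carries lactate out of cells, read 4.15, 3.86, 3.74, 4.09 and 4.35 against 0.95, 0.31 and 0.62 (3.41 ± 0.20, adjusted p = 8.49e-08). Hilpda, a lipid droplet gene induced by low oxygen, rose by 4.94 ± 0.31 (adjusted p = 1.13e-07), Ddit4, a brake on mTOR, by 3.09 ± 0.20 (adjusted p = 1.92e-07) and Ankrd37 by 4.12 ± 0.40 (adjusted p = 8.95e-06). In each of these genes every tumor sample lay above every normal sample. Vegfa, the growth factor for vessels, read 3.60, 3.68, 3.81, 4.10 and 3.79 against -0.34, -1.14 and -1.18 (4.68 ± 0.51, adjusted p = 2.43e-05). Pfkfb4, a regulator of glycolysis, was the member that fell (-0.95 ± 0.19, adjusted p = 0.00302; 0.0655 with the array median), and without tumor mouse 23677 a second one did. Of 30 genes of oxidative phosphorylation 13 rose by small amounts (43.3% called, median 0.42), among them Cycs, the cytochrome c gene (1.22 ± 0.18, adjusted p = 2.77e-04, 0.75 as the mean of its probes), and Cox5a (0.85 ± 0.16, adjusted p = 0.00230). That count lay between 5 and 8 when single samples were left out, except without tumor mouse 23677. It was 3 in the fit of the YFP- arrays alone, 6 with normexp and 8 with quantile normalization or the deposited values. Ankrd37 was well above background on 2 of 3 normal arrays. Normexp gave 2.72 for Ankrd37 on the log2 scale.

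Lipid, lysosome and antioxidant genes changed in part. Of 34 lipid genes 9 rose and 3 fell (35.3% called). Apoc2, an apolipoprotein gene, rose by 2.81 ± 0.37 (adjusted p = 1.34e-04), Fabp5, a fatty acid carrier gene, by 2.93 ± 0.49 (adjusted p = 9.44e-04) and Scd2, a desaturase gene, by 2.85 ± 0.28 (adjusted p = 8.95e-06). Cyp27a1, which oxidizes cholesterol, fell by 2.91 ± 0.24 (adjusted p = 1.85e-06). Of 37 lysosome genes 9 rose and 3 fell (32.4% called, against 16.1% of all genes). The collagen-degrading cathepsin gene Ctsk read 2.96, 1.24, -0.23, 1.75 and 1.88 in tumor against -6.74, -3.0 and -2.46 in normal samples (5.58 ± 0.99, adjusted p = 0.00142), and the protective protein gene Ctsa fell by 1.30 ± 0.18 (adjusted p = 1.94e-04). Without normal mouse 23912 4 lysosome genes rose and 4 fell. Of 34 antioxidant and iron genes 10 rose and 4 fell (41.2% called), with Gsr, the glutathione reductase gene (2.75 ± 0.16, adjusted p = 5.89e-08), Txnrd1 (1.81 ± 0.20, adjusted p = 3.13e-05) and Srxn1 (1.58 ± 0.22, adjusted p = 2.10e-04) among those that rose. The lower antioxidant count was 0 without normal mouse 23916, 1 without 23917 and 2 without tumor mouse 23550. Cyp27a1 was well above background on 4 of 5 tumor arrays and Ctsk on 2 of 3 normal arrays. With normexp the log2 difference was -1.52 for Cyp27a1.

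Of 41 proliferation genes 15 rose and none fell (36.6% called), with a median difference of 0.95. Mki67, a marker gene of cycling cells, read 1.25, 1.41, 1.68, 1.49 and 1.28 in tumor and 0.67, -0.44 and 0.08 in normal samples (1.32 ± 0.24, adjusted p = 0.00194), and Rrm2, a subunit of the enzyme that makes DNA building blocks, 0.86, 0.77, 0.82, 0.76 and 0.49 against -0.57, -2.85 and -2.60 (2.75 ± 0.39, adjusted p = 2.42e-04). In both genes the sample of normal mouse 23912 was the highest of the normal samples. The count was 27 without that mouse, 6 without 23916 and 7 without 23917. Among 30 immediate early and heat shock genes 11 rose and 3 fell (46.7% called). The nuclear receptor genes Nr4a1 and Nr4a2 rose by 1.66 ± 0.20 (adjusted p = 5.56e-05) and 3.80 ± 0.28 (adjusted p = 5.47e-07), and Fosl2, an AP-1 subunit gene, by 1.46 ± 0.16 (adjusted p = 2.03e-05). Ier5 fell by 1.64 ± 0.26 (adjusted p = 5.23e-04), and by 0.77 as the mean of its probes. The lower count of this list was 5 without normal mouse 23912 and 1 without 23916, 23917 or tumor mice 23550 or 23677.

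Of 45 enzymes that rebuild matrix and their inhibitors 17 rose and 3 fell (44.4% called, median 0.55). Mmp12, the macrophage elastase gene, read 6.37, 6.12, 5.99, 6.36 and 6.16 in tumor and 3.01, 1.22 and 1.43 in normal samples (4.31 ± 0.32, adjusted p = 7.21e-07), or 2.61 as the mean of its probes. Mmp14, a membrane-bound collagenase gene, rose by 3.50 ± 0.23 (adjusted p = 2.33e-07). Of 34 growth factor genes 11 rose and 2 fell (38.2% called). Next to Vegfa, these included Pgf, the placental growth factor gene (2.79 ± 0.28, adjusted p = 1.15e-05), Inhba, the activin A chain gene (at least 8.04-fold higher, adjusted p = 1.18e-06), and Ccn2, a matrix-associated growth factor gene (1.63 ± 0.19, adjusted p = 4.98e-05). Igf1, the insulin-like growth factor gene, fell by 2.38 ± 0.50 (adjusted p = 0.00454). The lower counts fell to 1 in the matrix enzyme list without tumor mouse 23548 or 23550 or normal mouse 23916 or 23917, and to 1 in the growth factor list without tumor mouse 23547, 23548, 23550 or 23551 or normal mouse 23916 or 23917. The log2 difference was 3.01 for Inhba with normexp.

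Of 42 collagen and structural matrix genes 12 rose and 2 fell (33.3% called), with a median difference of 0.95. Col1a1, a chain of the main collagen of scar tissue, read 4.22, 3.67, 3.91, 4.07 and 3.26 in tumor and 0.19, 1.75 and 2.60 in normal samples (2.32 ± 0.54, adjusted p = 0.00857). Col8a1 was not well above background on normal arrays and at least 3.07-fold higher in tumor (adjusted p = 5.52e-04). Lum, a collagen-binding proteoglycan gene of fibroblasts, read -0.92, -2.05, -1.35, -1.44 and -1.56 against -5.29, -2.07 and -0.41, with overlap (1.13 ± 0.83, adjusted p = 0.370; -0.22 without normal mouse 23912 and 2.22 without 23917). Fibroblast and stellate cell markers moved with these genes: 8 of 31 rose and none fell (25.8% called, against 16.1% of all genes, median 0.95). Their summed signal, in which bright members weigh most, was 135 to 188 times the 75th percentile in tumor and 66.3 to 137 times in normal samples. Their mean log2 signal was -0.14 to 0.29 in tumor and -2.01 to -0.20 in normal samples. Acta2, the smooth muscle actin gene of activated fibroblasts, rose by 2.91 ± 0.35 (adjusted p = 5.57e-05), Pdpn, also a gene of inflamed macrophages, by 4.00 ± 0.76 (adjusted p = 0.00231), and Sfrp2, a Wnt antagonist gene of fibroblasts, by 5.04 ± 1.06 (adjusted p = 0.00467). The part of other cells in the matrix result was not tested. Without normal mouse 23912 the matrix median was -0.03 and the fibroblast median 0.61; without 23917 18 matrix genes rose and none fell, and without 23916 none or without tumor mouse 23548 1 fell. A fall of 1 fibroblast gene was called without tumor mouse 23551 or 23677. Lum was well above background on 2 of 3 normal arrays and Sfrp2 on 2 of 3 normal arrays. Under normexp the log2 difference was 1.62 for Col8a1.

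**Figure D3:**
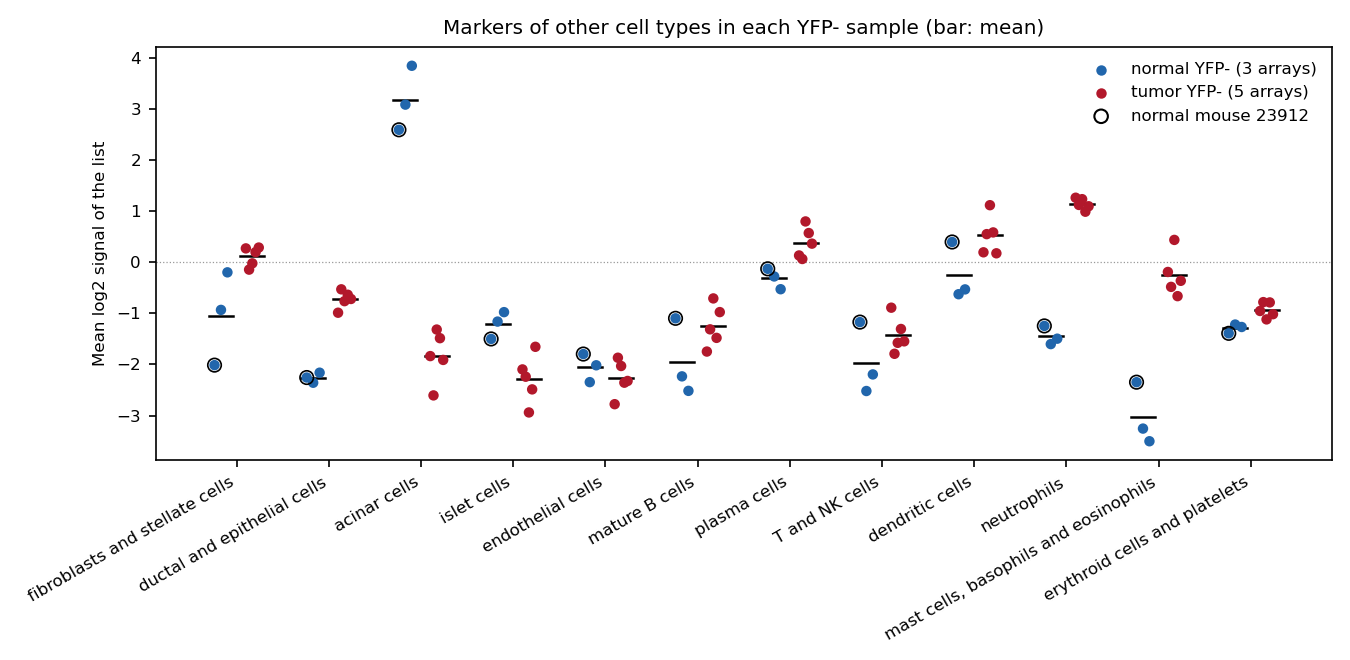
Mean log2 signal of 12 lists of markers of other cell types in each YFP- sample (points), with the group means (bars), tumor in red, normal pancreas in blue and normal mouse 23912 circled. Acinar markers are lower in every tumor sample, and neutrophil markers, ductal markers and markers of mast cells, basophils and eosinophils are higher in every tumor sample. With narrow gaps, islet markers are also lower in every tumor sample. Fibroblast markers, plasma cell markers and markers of erythroid cells and platelets are higher in every tumor sample, again with narrow gaps.

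Acinar markers had a larger median difference than any macrophage list. Of 43 acinar genes, most of which encode digestive enzymes, 37 fell and none rose (86.0% called), with a median difference of -5.45. Cela1, an elastase gene, read -2.91, -2.38, -2.72, -1.64 and -1.5 in tumor and 4.68, 6.03 and 6.59 in normal samples (-8.00 ± 0.50, adjusted p = 1.13e-07), and Cpa1, a carboxypeptidase gene, 1.83, 0.75, 1.46, 1.11 and 1.64 against 5.62, 6.23 and 6.75 (-4.84 ± 0.47, adjusted p = 8.10e-06). Of the 20 largest falls by the naming rule, 17 were in the acinar list, led by Cela2a (-8.63 ± 0.87, adjusted p = 1.26e-05). The acinar genes made up 1.08 to 2.16% of the summed signal of the genes tested in normal and 0.0208 to 0.0486% in tumor samples. The part of acinar RNA in the lower calls of other lists was not tested. Of 24 islet genes 5 fell and 2 rose (29.2% called, against 16.1% of all genes). The insulin gene Ins1 fell by 3.64 ± 0.44 (adjusted p = 5.56e-05) and Ins2 differed by -1.74 ± 0.66 (adjusted p = 0.0888). Without normal mouse 23916 or tumor mouse 23551 1 islet gene rose.

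Of 32 ductal and epithelial markers 16 rose and 3 fell (59.4% called, median 1.48). Krt19, a keratin gene of ductal cells, read 1.69, 3.25, 1.92, 2.49 and 2.29 in tumor and -2.96, -2.21 and -2.33 in normal samples (4.83 ± 0.48, adjusted p = 1.01e-05). Krt18 rose by 2.25 ± 0.25 (adjusted p = 3.46e-05), and Cdh1, the E-cadherin gene, was not well above background on normal arrays and at least 6.77-fold higher in tumor (adjusted p = 9.43e-08). Tff2, a mucus-associated peptide gene, fell by 5.15 ± 0.64 (adjusted p = 7.45e-05). The summed signal of the list was 51.4 to 66.2 times the 75th percentile in tumor and 23.8 to 49.9 times in normal samples. Osteopontin, from the gene Spp1, is also a ductal marker and is in this list. The lower count was 1 without tumor mouse 23548 or 23551 or normal mouse 23916. Normexp gave 2.76 for Cdh1 on the log2 scale.

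Of 28 neutrophil genes 17 rose and none fell in tumor YFP- samples (60.7% called, median 1.91), and the summed signal of the list was 272 to 330 times the 75th percentile in tumor and 220 to 276 times in normal samples. Bright members, which can include the macrophage gene Itgam, weigh most in this sum. The mean log2 signal of the list was 0.99 to 1.27 in tumor and -1.60 to -1.25 in normal samples. S100a8 and S100a9, the calprotectin genes, read 0.53, 1.25, 1.59, 0.94 and -0.22 and 2.52, 3.40, 3.25, 3.04 and 2.20 in tumor against -6.84, -6.22 and -3.74 and -4.11, -4.89 and -3.90 in normal samples (6.42 ± 1.09, adjusted p = 9.82e-04, and 7.18 ± 1.11, adjusted p = 4.97e-04). Retnlg, a secreted resistin-like gene of neutrophils, rose by 6.01 ± 0.58 (adjusted p = 7.98e-06). Of 25 genes of mast cells, basophils and eosinophils 16 rose and none fell (64.0% called, median 2.70). Without tumor mouse 23550 1 of these fell. The mast cell protease Mcpt2 read 1.5, 3.16, 3.42, 1.81 and 2.72 against -4.26, -5.46 and -6.54 (7.94 ± 0.52, adjusted p = 1.92e-07). Cpa3, a mast cell carboxypeptidase gene, read 1.04, -0.50, 2.56, -0.78 and 0.49 against -3.34, -5.17 and -6.55 (5.58 ± 1.05, adjusted p = 0.00224), and Fcer1a, the IgE receptor chain, was not well above background on normal arrays and at least 20.6-fold higher (adjusted p = 2.47e-04). On the normal arrays 4 of the 25 genes, and none of the 28 neutrophil genes, were at background on every array. These granulocyte genes moved with the monocyte, inflammatory and chemokine lists above, and their part in those results was not tested. Il1r2 and Cxcr2, described with those lists, are themselves members of the neutrophil list. S100a8 was well above background on 1 of 3 normal arrays, S100a9 on 2 of 3 normal arrays, Mcpt2 on 1 of 3 normal arrays and Cpa3 on 1 of 3 normal arrays. With normexp the log2 differences were 3.91 for S100a8 and 4.36 for Fcer1a.

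Of 21 mature B cell genes 4 rose and 2 fell (28.6% called, median 0.10). The summed signal of these genes was 41.3 to 66.3 times the 75th percentile in tumor and 56.5 to 77.25 times in normal samples. Their mean log2 signal was -1.75 to -0.71 in tumor and -2.52 to -1.10 in normal samples. Of 16 plasma cell genes 8 rose and 4 fell (75% called), and of 27 dendritic cell genes 6 rose and 2 fell (29.6%). Of 32 T and NK cell genes 2 rose and 2 fell (12.5%, against 16.1% of all genes). Cd79a, a chain of the B cell receptor, read -1.25, -0.85, 0.43, -0.59 and -0.35 in tumor and -1.65, -7.15 and -6.62 in normal samples (4.62 ± 1.26, adjusted p = 0.0218; 0.126 without normal mouse 23916 and 0.0987 without normal mouse 23917). Jchain, the joining chain of secreted antibodies, rose by 5.44 ± 0.97 (adjusted p = 0.00142), while Tnfrsf17, the plasma cell receptor BCMA, fell by 3.79 ± 0.52 (adjusted p = 1.76e-04). The T cell receptor chain Cd3e differed by 0.65 ± 0.44 (adjusted p = 0.331; 0.21 without normal mouse 23917 and 0.98 without 23912). Itgae, an integrin gene of some dendritic and T cells, rose by 4.34 ± 0.46 (adjusted p = 1.90e-05). Of 106 immunoglobulin segments by their array annotation, 62 rose and 1 fell, with a median difference of 3.33. Over all genes 16.1% were called, 7.63% higher and 8.46% lower. Many of these segments are close in sequence, and their probes may not tell them apart. Without normal mouse 23917 2 B cell genes rose, 5 plasma cell genes rose and 2 fell, and 1 T and NK cell gene rose and 1 fell. Without 23916 2 plasma cell genes fell, no T and NK cell gene rose and 1 fell, and without tumor mouse 23677 4 B cell genes fell. The lower count was 2 for plasma cell genes without tumor mouse 23547 or 23548, 1 for T and NK cell genes without normal mouse 23912, 0 for dendritic cell genes without tumor mouse 23547 or 23551 and 1 for them without tumor mouse 23548 or 23677 or normal mouse 23916 or 23917. Of 25 endothelial genes 1 rose (4.0% called), which was not called without normal mouse 23916 or 23917 or tumor mouse 23547, and of 21 erythroid and platelet genes 1 rose and 2 fell (14.3%). Cd79a was well above background on 1 of 3 normal arrays, Jchain on 2 of 3 normal arrays, Tnfrsf17 on 3 of 5 tumor arrays and Itgae on 2 of 3 normal arrays. The log2 differences were 2.84 for Cd79a and -2.29 for Tnfrsf17 with normexp.

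The naming rule takes the 20 largest measured rises, background values included, and leaves out immunoglobulin segments, which made up 13 of the 50 largest rises over all genes. Next to Mcpt2, Il1r2, S100a9 and Arg1, these held the protease inhibitors Cstdc4 (at least 16.1-fold), Csta2 (at least 11.1-fold), Slpi (6.01 ± 0.49) and Timp1 (5.87 ± 0.64). The mast cell protease gene Mcpt1 (at least 13.1-fold) and Fam71f2 (at least 22.5-fold) were among them, both not well above background on any normal YFP- array. The 20 rises also held Htr7, a serotonin receptor gene (at least 13.3-fold), and Lepr, the leptin receptor gene (at least 9.02-fold). Further members were Maff, a small Maf factor gene (at least 10.5-fold), and Nr4a3, an immediate early nuclear receptor gene (6.33 ± 0.46). Over the 20 genes the adjusted p lay between 1.03e-10 and 9.82e-04. Lepr read 0.13, -1.66, -2.13, 1.63 and 0.52 in tumor, with a wide range, and -6.75, -6.44 and -6.03 in normal samples. Slpi read 2.48, 2.33, 2.56, 2.97 and 2.76 against -3.61, -3.39 and -3.17, with a narrow range in each group. Timp1 was well above background on 1 of 3 normal arrays and Nr4a3 on 1 of 3 normal arrays. Under normexp the log2 differences were 4.01 for Cstdc4, 3.48 for Csta2, 3.46 for Timp1, 3.71 for Mcpt1, 3.74 for Htr7, 3.17 for Lepr, 3.40 for Maff and 3.80 for Nr4a3.

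YFP+ macrophages of tumor and normal pancreas, from the same mice by number, were used to test where the tumor difference depended on the population. In YFP+ cells 2978 genes (12.3%) passed the same test. Of the 3908 genes called in YFP- cells 2050 (52.5%) were also called in YFP+ cells, which is 68.8% of the calls there, and 2046 of them had the same direction. Arg1 differed by 6.91 ± 0.42 in YFP+ cells, Plet1 by 7.13 ± 0.20, Il1b by 3.06 ± 0.16, Cd209f by -4.44 ± 0.52 and Cela1 by -7.45 ± 0.50. Some list medians were alike, such as acinar cells (-5.45 in YFP- and -5.63 in YFP+ cells) and tissue-resident macrophages (-1.09 and -1.13). Others lay further apart, such as collagens and matrix (0.95 and -0.49), fibroblasts (0.95 and -0.25), ductal markers (1.48 and 0.22) and monocytes (1.38 and 0.44). The difference between the tumor effects of YFP- and YFP+ cells passed the test for 25 genes (0.103%), and 1446 of 24278 genes had an unadjusted p under 0.05. Its median SE was 0.44, against 0.31 for the YFP- difference. Of the 25 genes 18 were higher and 3 lower in tumor YFP- cells, and 13 of the 18 were not well above background on any normal YFP- array.

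The 6 genes with the smallest p for the difference between populations were well above background on the 5 tumor YFP- arrays, on none of the 3 normal YFP- arrays and on none of the YFP+ arrays. They passed the filter on dim probes through tumor YFP- samples alone, so that their test sets signal against background. Efna5, which encodes a ligand of Eph receptors, read -3.08, -2.14, -2.20, -2.48 and -2.98 in tumor and -6.48, -6.75 and -6.26 in normal YFP- samples (adjusted p of the difference between populations 7.77e-05). Serpina3n, a protease inhibitor gene, read -0.73, -3.10, -1.58, -0.85 and -1.17 against -6.82, -7.10 and -6.03 (adjusted p 0.00156). The others were Prrx2, a homeobox gene of mesenchyme, Thbs2, a matrix protein gene, Ednra, an endothelin receptor gene, and Kif26b, a kinesin gene. As lower bounds the YFP- rises were at least 3.51-fold for Efna5, 6.08-fold for Serpina3n, 3.55-fold for Prrx2, 2.77-fold for Thbs2, 3.01-fold for Ednra and 2.44-fold for Kif26b. In the same arrays the summed signal of the 31 fibroblast markers was 135 to 188 times the 75th percentile in tumor YFP- and 67.7 to 83.3 times in tumor YFP+ samples, and its part in these differences was not tested. The mean log2 signal of these markers was -0.14 to 0.29 in tumor YFP- and -2.46 to -1.97 in tumor YFP+ samples. Genes lower in tumor YFP- cells included P4htm (-2.74 ± 0.57 against 2.48 ± 0.57) and Rab25 (-2.47 ± 0.41 against 0.94 ± 0.41), named after their values were seen. As a bound P4htm was at least 1.33-fold lower in tumor YFP- samples, not well above background there, and with normexp it was not called (adjusted p = 0.463). The count of 25 became 69 without normal mouse 23912, 9 without 23916 and 8 with the slide as a block. Normexp gave 1.81 for Efna5, 2.60 for Serpina3n, 2.22 for Prrx2, 1.47 for Thbs2, 1.59 for Ednra, 1.29 for Kif26b, -0.41 for P4htm and -1.41 for Rab25 on the log2 scale.

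**Figure D4:**
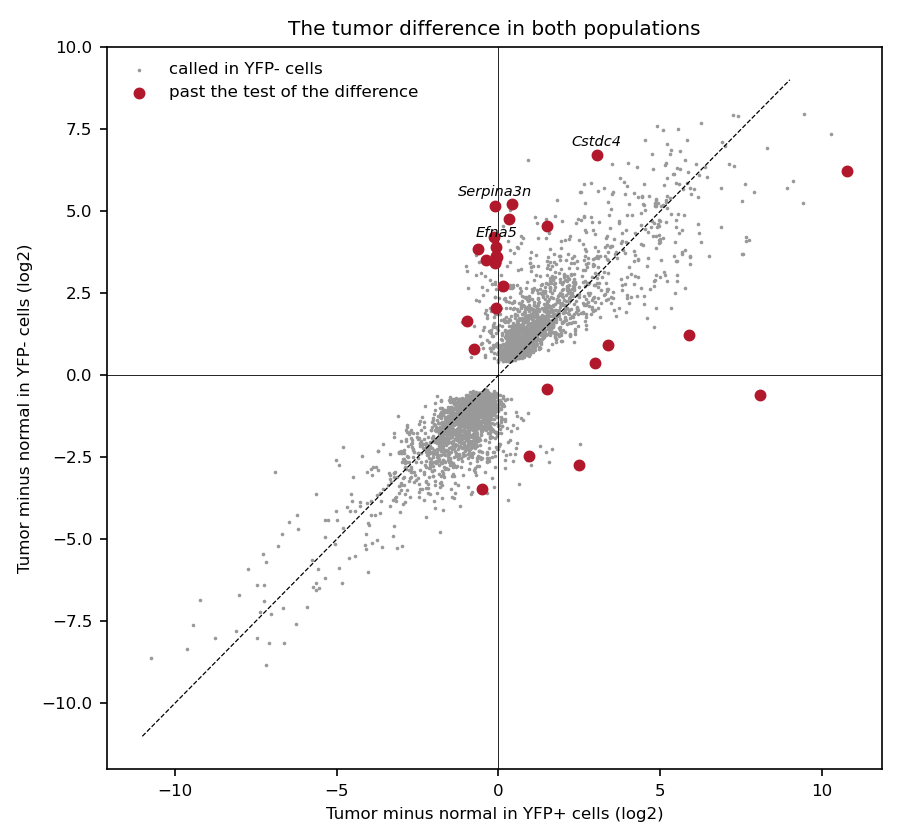
Tumor minus normal difference in YFP- cells (vertical axis, log2) against that in YFP+ cells (horizontal axis, log2) for the 3908 genes called in YFP- cells (grey) and the 25 genes whose 2 differences differ by the test (red). The dashed line marks equal differences; Efna5, Serpina3n and Cstdc4 lie above it.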

How the data were processed

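All 16 arrays were used in the fit, of which the 5 tumor and 3 normal YFP- arrays make the comparison. The authors deposited scanner intensities (Agilent Feature Extraction 11.5.1.1, per the submitters' processing notes), with background subtracted within each array, per the file headers. They also deposited log2 values whose normalization is not given in the sources used here, whose columns match between arrays once sorted, and whose median per array is 9.03. The log2 of the processed intensity was centred on each array's 75th percentile over spots other than controls. Flagged outlier spots were left out and spots of a probe averaged. Probes entered the test if the scanner software flagged them as well above background on 3 or more arrays, and the brightest probe stood for a gene. Of the 39429 probes 30312 were kept, for 24278 genes. Probe names were updated through RefSeq accessions for 28324 of the probes, and mm9 positions come from the files.

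Differences were tested with limma 3.58.1 (R 4.3.3) on 16 arrays with 4 group means, two-sided, Benjamini-Hochberg adjusted p under 0.05. A gene not well above background in a whole group has only a bound, the brighter mean over the higher of the dimmest signal well above background and its own, or the fold with normexp where that is smaller. Members and gene lists were chosen with earlier results of these data known. Genes were named by rule: the 20 largest non-overlapping rises and falls, up to 4 called members of each list in each direction, chosen genes whatever their values, and the 6 smallest p for the difference between populations. The text leaves out some of these. The test was checked on simulated data with 24278 genes: of 50 genes changed at each log2 difference of 1, 2, 3 and 4 it recovered 34, 74, 84 and 92%, with 8 false calls. The simulated noise was independent between genes and arrays, and few genes were changed. These figures therefore need not hold for the data. The mouse number, read from the titles, pairs YFP- with YFP+ samples and was tried as a replicate block; the groups compared share none. The number of arrays limits the precision. Tried alternatives were quantile, median and deposited scaling, normexp with offset 50, other filters and probe rules, the YFP- arrays alone, the slide and mouse blocks, array weights and leaving out each sample.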

Additional observations from a re-analysis of the deposited data

Results flagged for a closer look

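Values of 1 tumor sample lay apart from the other 4 tumor samples in 10 of the 193 genes and list means looked at, by Dixon's ratio against a limit of 0.71. Chance alone puts about 1 in 20 such groups past it. Csf1r read 4.93 in tumor mouse 23550, against 5.48 to 5.69 in the others, and Ifi30 5.71 in tumor mouse 23550, against 6.01 to 6.11 in the others. Hpgd was -4.46 in tumor mouse 23550, against -1.22 to -0.82 in the others. Retnla stood at -1.06 in tumor mouse 23677, against 0.01 to 0.25 in the others, and Rrm2 at 0.49 in tumor mouse 23677, against 0.76 to 0.86 in the others. Ccl11 was -5.04 in tumor mouse 23677, against -6.83 to -6.56 in the others, and Cd209b -5.09 in tumor mouse 23547, against -6.87 to -6.57 in the others, both not well above background. Cd3e read -0.95 in tumor mouse 23548, against 0.03 to 0.07 in the others. Ednra was -3.85 in tumor mouse 23548, against -2.93 to -2.64 in the others, and Fam71f2 1.06 in tumor mouse 23551, against -0.24 to -0.06 in the others.

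The tumor minus normal difference of YFP- cells less that of YFP+ cells passed the test for 9 of the genes named. It was 5.28 for Serpina3n (limma, adjusted p = 0.00156), 4.49 for Ednra (8.50e-04), 3.99 for Efna5 (7.77e-05), 3.90 for Thbs2 (7.54e-04), 3.72 for Prrx2 (1.55e-04), 3.66 for Cstdc4 (0.0219) and 3.65 for Kif26b (0.00172). It was -3.40 for Rab25 (0.0427) and -5.22 for P4htm (0.0219). Serpina3n, Ednra, Efna5, Thbs2, Prrx2 and Kif26b were at background on all arrays other than the 5 tumor YFP- arrays, so that these values set signal against background and depend on its correction. As bounds their rises in YFP- cells were at least 6.08-, 3.01-, 3.51-, 2.77-, 3.55- and 2.44-fold. Cstdc4 was at background on the normal YFP- arrays, at least 16.1-fold lower than in tumor. P4htm was well above background on 3 of 3 normal and 0 of 5 tumor YFP- arrays, and on 0 of 3 normal and 4 of 5 tumor YFP+ arrays.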

How the results depend on the processing

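Of the 133 called genes named in the text 121 kept their call and direction in all 19 alternatives, 12 lost the call in at least 1, and none changed sign. Single probes were compared apart from this: of all 154 genes named 34 had several probes, and in 3 the probes had opposite signs. The count of called genes was 2303 in the YFP- arrays alone and 9344 with array weights, with 2429 to 4809 when single samples were left out. Higher genes numbered 1192 and 3868 in the same fits, with 1293 to 2113 on leaving samples out. Lower genes numbered 1189 with the array median, 1293 with normexp, 1111 in the YFP- arrays alone and 5476 with array weights, with 1136 to 2696 on leaving samples out. In YFP+ cells 4504 genes were called with array weights. Of the 39 list medians 20 moved in some alternative by at least the SD of the list between samples of a group. The difference between populations was called for 8 genes with the slide as a block and 354 with array weights, with 9 to 69 on leaving samples out. The fit of the YFP- arrays alone has fewer samples; for the other settings the cause was not tested. The replicate block, with the mouse number that pairs YFP- and YFP+ samples, had a consensus correlation of 0.03 and 3910 calls, and ended no call of a gene named. The compared groups share no mouse number.

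Genes not called in the report changed sign in some settings. Ccl2 differed by 0.19 with the array median, 0.055 with the slide block and -0.17 to 0.25 when single samples were left out. Ccl8 differed by -0.36 with array weights and -0.32 to 1.39 when single samples were left out. Ccr2 differed by 0.011 with array weights. Cd74 differed by 0.19 with the array median, 0.11 with array weights and -0.082 to 0.12 when single samples were left out. H2-Ab1 differed by -0.037 with the mean of probes, -0.020 with the slide block and -0.050 to 0.17 when single samples were left out. Lum differed by -0.22 to 2.22 when single samples were left out. Mertk differed by -0.035 to 0.64 when single samples were left out. Nos2 differed by 0.098 with quantile normalization, 0.15 with the array median, 0.14 with normexp, 0.10 with the deposited values, 0.19 with the slide block and -0.23 to 0.20 when single samples were left out. The cause was not tested. Dim genes are limited by signal over background: 142 higher and 220 lower called genes were not well above background in the dim group, so that their log2 difference depends on the background correction.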
